A study of Homo sapiens with 6 samples.

Results

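Integrins are the receptors by which cells hold on to the matrix around them. Each is a pair of 1 α and 1 β chain, and the α chain decides much of what is bound. Laminins are the matrix proteins that many of these receptors bind. Each is a trimer of 1 α, 1 β and 1 γ chain, laid down as the sheet of the basement membrane under epithelia. In breast epithelium α6β4 holds cells to laminin at hemidesmosomes, and α3β1 and α6β1 bind laminin in moving cells. The genes described here are the integrin and laminin chains, chosen by their symbols in the probe annotation: ITGA, ITGB, LAMA, LAMB and LAMC genes. That rule makes no use of their values, but the families were chosen with earlier results of these data known. Of 38 chains, 35 were read (25 integrins and 10 laminins), among 18155 genes in all. The others were not analysed here.

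The cells were MDA-MB-231, a human line of metastatic breast cancer that lacks hormone receptors, grown in DMEM with fetal bovine serum. They carried either a lentivirus with the full-length CTCF coding sequence (CTCF-OE, 3 arrays) or a negative control lentivirus (NC, 3 arrays), each as a stable line, and total RNA was read on Affymetrix PrimeView arrays. The study asked which genes follow CTCF, a zinc finger protein that binds insulators and chromatin loop anchors, in cells whose migration and invasion it had measured. The methods speak of independent experiments for the study's data in general, but the sources used here do not say of the arrays in particular that the 3 of a label came from separate cultures, and each line was set against only 1 other line. Therefore each p-value below rests on array-to-array spread alone, and that spread may be technical.

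The values are intensities of probe sets, groups of short oligonucleotides that each read a stretch of a transcript, on a linear scale. The array medians were between 83.3 and 84.5. Intensities can be compared between arrays for 1 probe set. Bright and dim below mean only that a probe set read above or below the median gene on the array, which says little about transcript levels, and no gene is ranked against another by intensity. Each gene was read by its brightest probe set, and log2(intensity + 1) was tested with limma, with p-values adjusted over all genes by the Benjamini-Hochberg method. CTCF itself read 399, 388 and 399 in the arrays labelled CTCF-OE, against 463, 442 and 489 in the NC arrays, a log2 fold change of -0.23 (standard error, SE, 0.0451; adjusted p = 0.0575 from limma). Its only probe set was thus not higher in the arrays labelled CTCF-OE, and where that probe set lies in the transcript is not given in the sources used here. All directions below follow the labels. Control probe sets for ribosomal RNA differed in the same direction. For 28S ribosomal RNA the 5′ probe set read 4419, 4326 and 4368 in the arrays labelled CTCF-OE, against 5706, 5679 and 5716 in the NC arrays, a log2 difference of -0.38. Over 45 probe sets for bacterial and phage control RNAs, the log2 difference ran between -0.09 and 0.16. The middle and 3′ probe sets of 28S differed by -0.16 and -0.03, and those of 18S by -0.22 at the 5′ end, -0.22 in the middle and -0.16 at the 3′ end. These differences lie in the range of those of the integrin and laminin genes below, except the 5′ one of 28S, which is larger, and their part in the results was not tested.

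Of the 35 integrin and laminin genes, 1 was lower at an adjusted p under 0.05, LAMB3, against 1.39 percent of all genes tested, and 0 were higher, against 0.727 percent. A fold change above 1.3 together with that adjusted p was met by 0 of the 35 genes, against 0.54 percent of all genes. At an unadjusted p under 0.05 from limma, 5 members were lower and 4 higher, and 17.2 percent of all genes passed that limit in either direction. The methods' t-test gave 5 lower and 4 higher at the same unadjusted limit, against 16.5 percent of all genes in either direction, and 0 of these members had a fold change above 1.3. The log2 fold changes of the members ran between -0.31 and 0.11 with a median of 0.01, and the median of all genes was 0.00. With 35 members these shares lie close to the background.

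**Figure D1:**
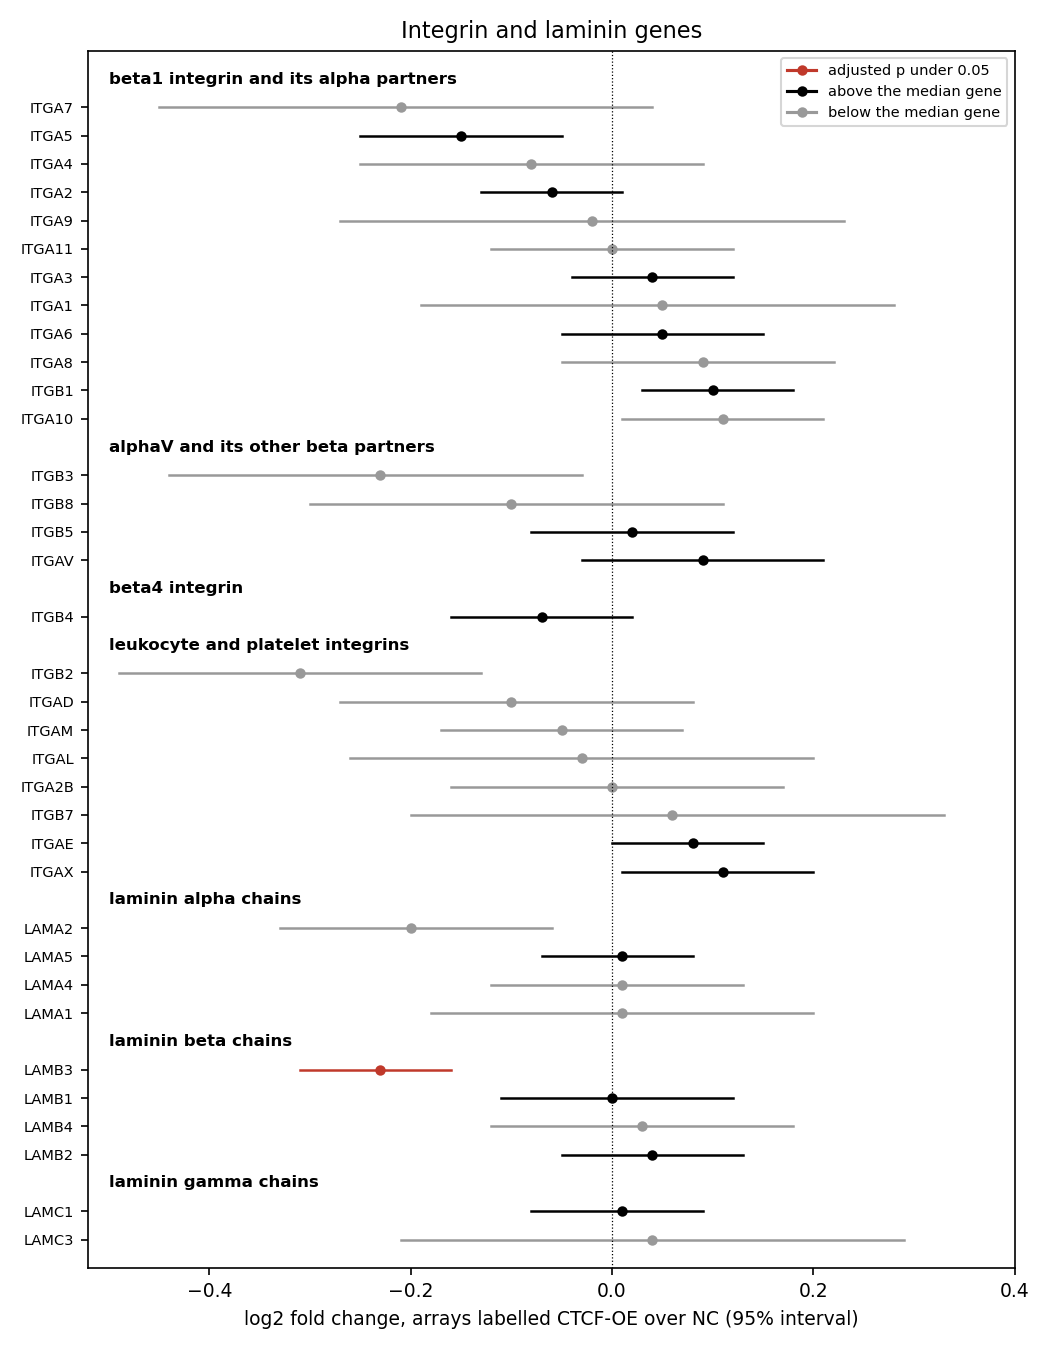
Log2 fold change of the 35 integrin and laminin genes (x axis, arrays labelled CTCF-OE over NC, n = 3 each), grouped by role down the y axis; points are fold changes and lines are 95% intervals. LAMB3 (red) is the gene with an adjusted p under 0.05, black marks members above the median gene (117 intensity), grey those below it, and most intervals cross 0.

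The 3 arrays of 1 label lay fully below or above the 3 of the other, without overlap, more often than the adjusted test passed. This held for 7 members lower in the arrays labelled CTCF-OE, against 13.3 percent of all genes, and for 6 members higher, against 11.4 percent. The lower ones were LAMB3, ITGA5, ITGB2, ITGB3, ITGB4, ITGA2 and LAMA2. The higher ones were ITGB1, ITGA3, ITGAV, ITGAE, ITGAX and ITGA10. The members hold 101 probe sets. Of these, 1 was lower at an adjusted p under 0.05 (LAMB3), against 1.27 percent of all 49293 probe sets, and 1 was higher (ITGB1), against 0.803 percent. The share of all probe sets without overlap was not counted. Counts of separate probe sets within a gene are therefore given below without a background.

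Among the laminins, the matrix ligands, LAMB3 fell. It encodes the β3 chain of laminin-332, the ligand of α6β4 and α3β1 in epithelial basement membrane. Its brightest probe set read 1905, 1867 and 1888 in the arrays labelled CTCF-OE, against 2194, 2219 and 2238 in the NC arrays. All 3 NC arrays were higher, and the spread within each label was small: 1886 ± 19.4 in CTCF-OE and 2217 ± 21.9 in NC (SD, n = 3 each). The log2 fold change was -0.23 (SE 0.0315, 95% interval -0.31 to -0.16, adjusted p = 0.0198 from limma), a ratio of 0.851. The other LAMB3 probe set had the same direction, with 406, 403 and 435 in CTCF-OE and 475, 501 and 461 in NC. Its log2 fold change was -0.21 and its adjusted p, 0.101, did not pass. When any 1 of the 6 arrays was left out, the LAMB3 call did not stand (adjusted p of 0.0584 to 0.113 from limma). Its log2 fold change then stayed between -0.24 and -0.23. Fewer genes passed in general with 1 array left out: 0.314 to 0.666 percent were lower, against 1.39 percent with all arrays. In bulk RNA, fewer cells with LAMB3 and less LAMB3 RNA per cell cannot be told apart, and the same holds for every gene below.

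The other laminin chains that read above the median gene lay close to 0. LAMB1, the β1 chain of the most widespread laminins, read 932, 942 and 949 in CTCF-OE and 925, 896 and 1001 in NC. The groups overlapped, and the 95% interval of its log2 fold change was -0.11 to 0.12. LAMC1, the γ1 chain of most laminins, read 1221, 1165 and 1209 in CTCF-OE, against 1173, 1200 and 1203 in NC, with an interval of -0.08 to 0.09. LAMA5, the α5 chain, read 572, 575 and 571 in CTCF-OE and 576, 571 and 563 in NC, with an interval of -0.07 to 0.08. LAMB2, the β2 chain, read 302, 300 and 306 in CTCF-OE and 294, 303 and 284 in NC (log2 fold change 0.04). At the brightest probe sets of these 4 chains, changes beyond 0.13 on the log2 scale in either direction lie outside the intervals. That does not hold for every probe set. The other LAMB1 probe set lay at -0.08, with an interval of -0.23 to 0.07. A LAMC1 probe set at -0.03 was lower without overlap, and the remaining LAMC1 probe sets overlapped. The difference between LAMB3 and the other chains was not tested. LAMA2, the α chain of muscle laminin, is dim here and read 24.5, 21.8 and 24.7 in CTCF-OE, against 26.7, 26.6 and 28.5 in NC. Its log2 fold change of -0.20 did not pass (adjusted p = 0.153 from limma). The remaining dim chains, LAMA1, LAMA4, LAMB4 and LAMC3, had log2 fold changes of 0.01 to 0.04 and overlapping arrays.

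Promoter sequences from RefSeq (GRCh38.p14) are shown for LAMB3, which passed the test, and for ITGA5 and ITGB1, which did not pass as genes but whose bright probe sets were all separate. Each runs 5′ to 3′ over 300 bases, 250 before and 50 after the outermost annotated start, all on the minus strand: LAMB3 at chr1:209652376-209652675, ITGA5 at chr12:54419217-54419516 and ITGB1 at chr10:32958181-32958480. Capitals mark matches to the κB consensus on either strand, the letters read by NF-κB, the factor the study followed.
LAMB3: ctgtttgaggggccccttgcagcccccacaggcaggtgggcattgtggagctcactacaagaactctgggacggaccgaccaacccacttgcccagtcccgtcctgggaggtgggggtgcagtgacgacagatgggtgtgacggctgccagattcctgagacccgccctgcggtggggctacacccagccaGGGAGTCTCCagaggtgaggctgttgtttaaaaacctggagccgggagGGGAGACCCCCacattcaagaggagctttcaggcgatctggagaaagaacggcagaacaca
ITGA5: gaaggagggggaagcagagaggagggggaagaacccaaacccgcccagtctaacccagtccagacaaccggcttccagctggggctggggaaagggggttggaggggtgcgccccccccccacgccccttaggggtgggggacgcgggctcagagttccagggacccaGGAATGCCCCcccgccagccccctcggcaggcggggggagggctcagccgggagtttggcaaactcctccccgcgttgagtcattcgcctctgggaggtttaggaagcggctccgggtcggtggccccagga
ITGB1: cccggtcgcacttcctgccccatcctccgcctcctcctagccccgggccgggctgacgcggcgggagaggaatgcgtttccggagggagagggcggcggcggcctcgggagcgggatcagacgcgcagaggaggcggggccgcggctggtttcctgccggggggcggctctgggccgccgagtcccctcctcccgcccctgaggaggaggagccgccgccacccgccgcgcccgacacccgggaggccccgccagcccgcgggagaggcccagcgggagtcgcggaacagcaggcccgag
The LAMB3 window held 3 matches, of which 2 overlap and run together, the ITGA5 window held 1 and the ITGB1 window 0. These counts depend on how strict the consensus is. The ITGB1 window holds gggaggcccc, which is close to the marked GGGAGACCCC of LAMB3 but was not a match to the consensus used. A match was found in 5.91 percent of all 35116 promoter windows of this length. Among the members, 24 had promoters in the table, with 31 windows, and 6 windows held a match (19.4 percent): those of ITGA10, ITGA1, ITGA5 and ITGA11 and 2 of LAMB3. ITGA10, ITGA1 and ITGA11 did not pass the test in these arrays. The AP-1 motif TGANTCA was in 1 window of LAMB3, not the one printed, and in that of ITGA5, against 7.71 percent of all windows. The letters CCCTC or their reverse complement GAGGG, the core for which CTCF was named, stood 2 times in the LAMB3 window, 5 times in ITGA5 and 3 times in ITGB1, and 71.2 percent of all windows hold them, as do 90.3 percent of the members' windows (28 of 31). These matches describe letters and are not binding sites.

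Among the receptors, ITGB1 was higher at each of its bright probe sets. It encodes β1, the partner of most α chains that bind laminin, collagen and fibronectin. Its brightest probe set read 8302, 8224 and 8183 in CTCF-OE, against 7805, 7522 and 7681 in NC. The groups did not overlap, and the means were 8236 ± 60.6 in CTCF-OE and 7669 ± 142 in NC (SD, n = 3 each). The log2 fold change of 0.10 did not pass (SE 0.0327, 95% interval 0.03 to 0.18, adjusted p = 0.18 from limma). The probe set that did pass read 1170, 1126 and 1141 in CTCF-OE, against 982, 926 and 1002 in NC. Its log2 fold change was 0.24 (SE 0.0438), with an adjusted p of 0.0482 over all probe sets from limma. It did not pass when any 1 array was left out (limma adjusted p of 0.0782 to 0.177). Of all probe sets 0.0669 to 0.258 percent were then higher, against 0.803 percent with all arrays. The remaining bright probe sets read 2755, 2612 and 2609 in CTCF-OE against 2237, 2105 and 2424 in NC, and 3845, 3810 and 3723 in CTCF-OE against 3502, 3399 and 3618 in NC. Neither passed (adjusted p = 0.104 and 0.218 from limma), and in both all 3 arrays labelled CTCF-OE were the higher ones. A dim probe set of ITGB1, with intensities of 7.29 to 8.46, overlapped.

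**Figure D2:**
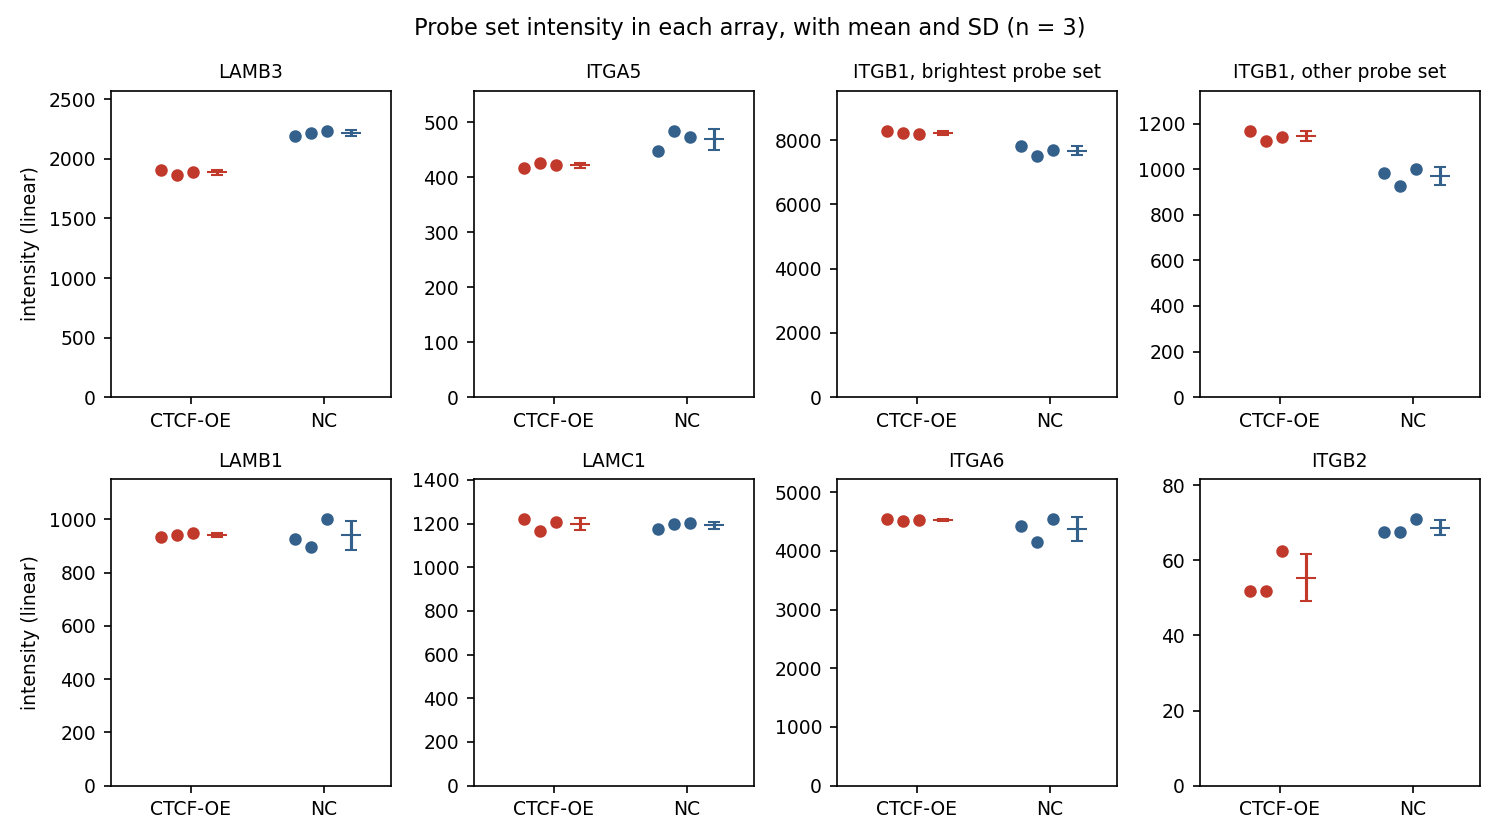
Intensity (y axis, linear, from 0) of 8 member probe sets in each array, CTCF-OE (red) left of NC (blue), with mean and SD beside the points (n = 3 each). LAMB3, ITGA5 and ITGB2 lie lower in CTCF-OE and both ITGB1 probe sets higher, without overlap; LAMB1, LAMC1 and ITGA6 overlap.

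ITGA5, the α chain that with β1 forms the fibronectin receptor, differed in the other direction. It read 416, 426 and 423 in CTCF-OE, against 447, 485 and 474 in NC. The 3 CTCF-OE arrays were close together and all below the NC arrays, with means of 422 ± 4.69 in CTCF-OE and 468 ± 19.4 in NC (SD, n = 3 each). The log2 fold change of -0.15 did not pass (SE 0.0408, 95% interval -0.25 to -0.05, adjusted p = 0.126 from limma). All 4 ITGA5 probe sets were lower without overlap, with log2 fold changes of -0.19 to -0.08, and like those of ITGB1 they are not independent readings. The one with the smallest adjusted p, 0.0774, read 160, 162 and 165 in CTCF-OE and 181, 192 and 182 in NC.

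The bright α chains that bind laminin or collagen with β1 had log2 fold changes of -0.06 to 0.05. ITGA2, the collagen receptor chain, read 1096, 1096 and 1096 in CTCF-OE and 1147, 1152 and 1131 in NC. This was a separation without overlap but a log2 fold change of only -0.06 (adjusted p = 0.37 from limma). ITGA3, the α chain of the laminin-332 receptor α3β1, read 1567, 1563 and 1614 in CTCF-OE and 1548, 1546 and 1526 in NC. Its log2 fold change was 0.04 (adjusted p = 0.61 from limma), and its other probe sets lay at -0.04 and -0.03. ITGA6, which pairs with β1 or β4 to bind laminin, read 4545, 4508 and 4527 in CTCF-OE and 4429, 4149 and 4537 in NC. The groups overlapped there and at another of its 3 probe sets, and did not overlap at the remaining one, with 1239, 1246 and 1221 in CTCF-OE and 1170, 1166 and 1166 in NC. The log2 fold changes were 0.05 to 0.09, 0 passed, and the one at the brightest was 0.01 without NC replicate 2. The dim α partners of β1 (ITGA1, ITGA4, ITGA7, ITGA8, ITGA9, ITGA10 and ITGA11) had log2 fold changes of -0.21 to 0.11, and 0 passed. ITGA10, a collagen receptor chain of cartilage, had separate arrays, 63.3, 67.4 and 68.3 in CTCF-OE and 62.4, 60.2 and 61.2 in NC, and its other probe sets lay at 0.01 and, also separate, at -0.30. ITGA7, the α chain of the laminin receptor of muscle, read 25.1, 29.5 and 27.3 in CTCF-OE and 28.2, 36.8 and 30.3 in NC. These overlapped, at a log2 fold change of -0.21 (adjusted p = 0.369 from limma).

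The fold changes of ITGB1 and ITGA5 had opposite signs. To set them side by side, the log2 ratio of each bright α chain to ITGB1 was taken within each array. These ratios reuse the values above and are not separate evidence. All share the brightest ITGB1 probe set, itself higher by 0.10, so they are lowered together and are not independent. The ITGB1 probe set at 0.24 was not used. For ITGA5 the ratio was lower in CTCF-OE than in NC, with a log2 difference of -0.25 (SE 0.0517). For ITGA2 the difference was -0.16 (SE 0.0201). For ITGA3 it was -0.06 (SE 0.0258), though ITGA3 itself lay at 0.04. These 3 ratios were lower in all CTCF-OE arrays. The exact two-sided permutation p was 0.1 for each, the smallest that 3 arrays against 3 allow, and 0.167 after adjustment over 5 pairs. No pair could thus pass 0.05. The differences were -0.05 for ITGA6 and -0.01 for ITGAV, with exact permutation p = 0.2 and 0.8, and these ratios overlapped. A ratio of 2 probe sets follows change and not the number of receptors.

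ITGB4, the β4 chain that anchors hemidesmosomes to the keratin cytoskeleton, was read by 8 probe sets. The brightest read 347, 344 and 345 in CTCF-OE, against 350, 371 and 368 in NC, a log2 fold change of -0.07 (adjusted p = 0.376 from limma). All 8 lay at or below 0, the lowest at -0.15 with 199, 213 and 205 in CTCF-OE and 226, 238 and 221 in NC. None passed in limma, and 3 of the 8 were separate. These probe sets read 1 transcript in the same 6 arrays and are not independent of each other.

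**Figure D3:**
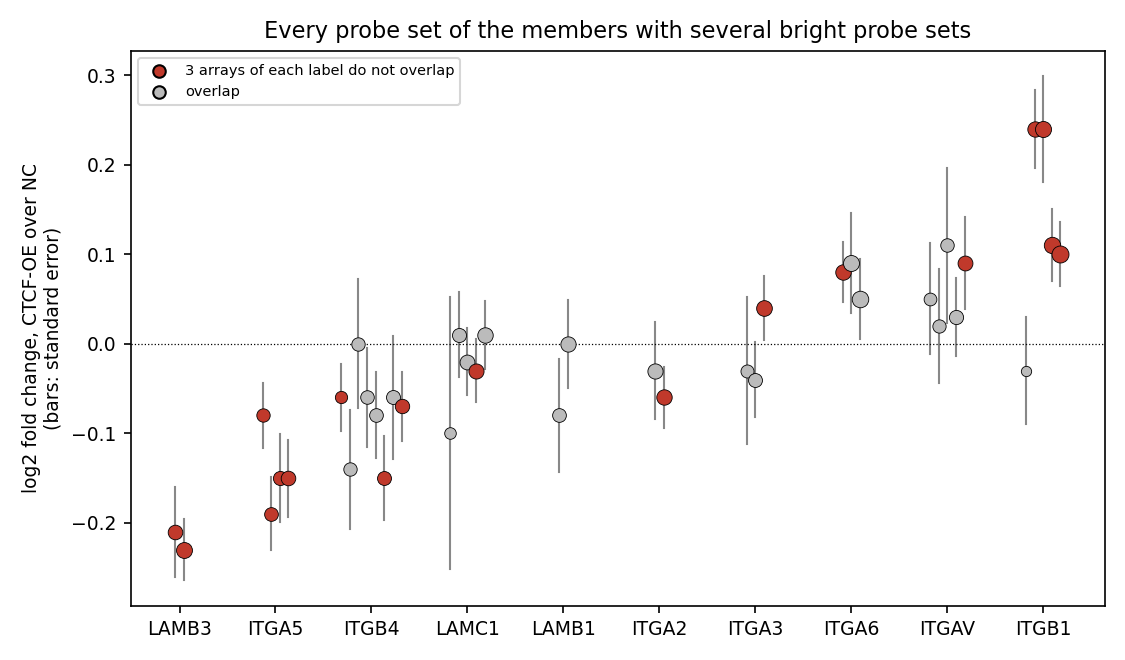
Log2 fold change (y axis, CTCF-OE over NC) of every probe set of 10 members, with standard errors as bars, point size growing with mean intensity and red marking arrays without overlap. The LAMB3 and ITGA5 probe sets all lie below 0, the 4 bright ITGB1 probe sets between 0.10 and 0.24.

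The αV integrins bind fibronectin, vitronectin and latent TGF-β through the RGD motif. ITGAV read 631, 643 and 633 in CTCF-OE and 611, 556 and 624 in NC, without overlap, with a log2 fold change of 0.09 (adjusted p = 0.401 from limma). It was 0.04 without NC replicate 2, the lowest array. All 5 of its probe sets lay above 0, between 0.02 and 0.11, and 1 of the 5 was separate. ITGB5, the β chain of the vitronectin receptor αVβ5, read 781, 789 and 773 in CTCF-OE and 764, 809 and 737 in NC (log2 fold change 0.02). ITGB3, the β chain of αVβ3 and of the platelet fibrinogen receptor, was dim. It read 52.6, 47.2 and 40.5 in CTCF-OE, against 54.7, 54.6 and 55.3 in NC, all 3 lower but widely spread (log2 fold change -0.23, adjusted p = 0.241 from limma). Of its 7 probe sets, 3 lay below 0 and 4 above. ITGB8, also dim, overlapped with a log2 fold change of -0.10.

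The leukocyte and platelet integrins are not characteristic of epithelial cells, and most read below the median gene. ITGB2, the common β2 chain of leukocyte integrins, had the log2 fold change farthest from 0 of the 35 members and is named for its value. It read 51.9, 51.7 and 62.6 in CTCF-OE, against 67.6, 67.6 and 71 in NC. The groups did not overlap, but 1 CTCF-OE array lay close to the NC values. The log2 fold change of -0.31 did not pass (SE 0.0769, adjusted p = 0.105 from limma), and it did pass without CTCF-OE replicate 3 (-0.40, adjusted p = 0.0362 from limma). Of its α partners, ITGAL, ITGAM and ITGAD lay at -0.03, -0.05 and -0.10 with overlapping arrays. ITGAX, the αX chain (CD11c) that pairs with β2, read 141, 131 and 135 in CTCF-OE, against 125, 124 and 130 in NC. Its log2 fold change of 0.11 did not pass (adjusted p = 0.264 from limma), and its probe set, ending in _x_at, is of a class that may read other transcripts too. The other ITGAX probe sets were dim and overlapped, at 0.10, 0.03 and -0.03. The brightest probe sets of ITGB1, ITGA5, ITGA6 and ITGAV end in _s_at. Without probe sets ending in _s_at or _x_at, these genes lay at 0.239, -0.188, 0.087 and 0.028, and none passed. ITGAE, the α chain that binds E-cadherin with β7 in intraepithelial lymphocytes, read 1719, 1747 and 1754 in CTCF-OE and 1640, 1636 and 1665 in NC (log2 fold change 0.08, adjusted p = 0.269 from limma). ITGB7 and ITGA2B, at 0.06 and 0.00, overlapped. The summed intensity of 4 leukocyte markers (PTPRC, CD3E, CD14 and SPI1) was 161 to 170 in CTCF-OE and 161 to 174 in NC. PTPRC, which defines leukocytes, read 7.41 to 7.61 in CTCF-OE and 7.03 to 7.57 in NC. The sum of 3 platelet markers was 74.4 to 85.9 in CTCF-OE and 75.8 to 80.3 in NC. The labels thus overlapped for both lists. The mesenchymal markers of the line, VIM, CD44, AXL and CAV1, were bright and summed to 30200 to 30454 in CTCF-OE and 30177 to 30828 in NC. The sums of luminal, endothelial and fibroblast markers overlapped between the labels too. No marker passed the adjusted test.

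Integrins work through proteins that bind them inside, outside and within the membrane, and 4 lists of these gave 70 genes with values of 75 listed. Of the 70, 2 were lower at an adjusted p under 0.05 and 0 higher, against the 1.39 and 0.727 percent of all genes given above. The lists were drawn with earlier results of these data known, so these counts cannot show whether partners differ from other genes. Both are partners of integrins. SLC3A2 encodes the heavy chain of CD98, which carries amino acid transporters to the membrane and binds the β1 tail. It read 1442, 1482 and 1442 in CTCF-OE, against 1925, 2008 and 1978 in NC. This was the largest fall in the 4 lists, a log2 fold change of -0.44 (SE 0.0346, adjusted p = 0.00319 from limma), and it passed without each array in turn. ICAM1, the cell surface ligand of β2 integrins, read 606, 560 and 550 in CTCF-OE and 681, 760 and 711 in NC. Its log2 fold change was -0.33 (SE 0.0568, adjusted p = 0.0437 from limma). ICAM1 did not pass when any 1 array was left out (limma adjusted p of 0.0836 to 0.164), where 0.314 to 0.666 percent of all genes were lower.

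The other partners gave few differences. Of 30 activators and adaptors on the inner side, such as talin, kindlins, ILK, FAK and vinculin, 0 passed in either direction, with a median log2 fold change of -0.02. Of these, 18 lay below 0 and 12 above. TLN1, the talin that opens integrins, read 342, 333 and 341 in CTCF-OE and 359, 336 and 359 in NC (log2 fold change -0.05). SRC and FERMT3, both at -0.18, were lower without overlap (adjusted p = 0.22 and 0.139 from limma). Of 14 basement membrane partners and other laminin receptors, among them nidogens, perlecan, agrin and collagen IV chains, 0 passed, with a median of -0.04. Here 9 lay below 0 and 5 above. COL4A1 had a log2 fold change of -0.16 (adjusted p = 0.166 from limma) and COL7A1 of -0.14 (adjusted p = 0.106 from limma), both without overlap. Of 9 hemidesmosome, tetraspanin and lateral partners, SLC3A2 alone passed, with a median of 0.01, and CD151, the tetraspanin that binds α3β1 and α6β4, lay at -0.02. Of 17 ligands other than laminins and collagens, ICAM1 alone passed, with a median of 0.02. Just outside the threshold stood TNC, tenascin-C, a ligand of α9 and αV integrins. It read 596, 608 and 622 in CTCF-OE and 536, 498 and 533 in NC (log2 fold change 0.22, adjusted p = 0.0559 from limma). FBN1, fibrillin-1, read 141, 140 and 143 in CTCF-OE and 158, 165 and 156 in NC (log2 fold change -0.18, adjusted p = 0.0617 from limma). Fibronectin, FN1, the ligand of α5β1, overlapped at 0.07.

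**Figure D4:**
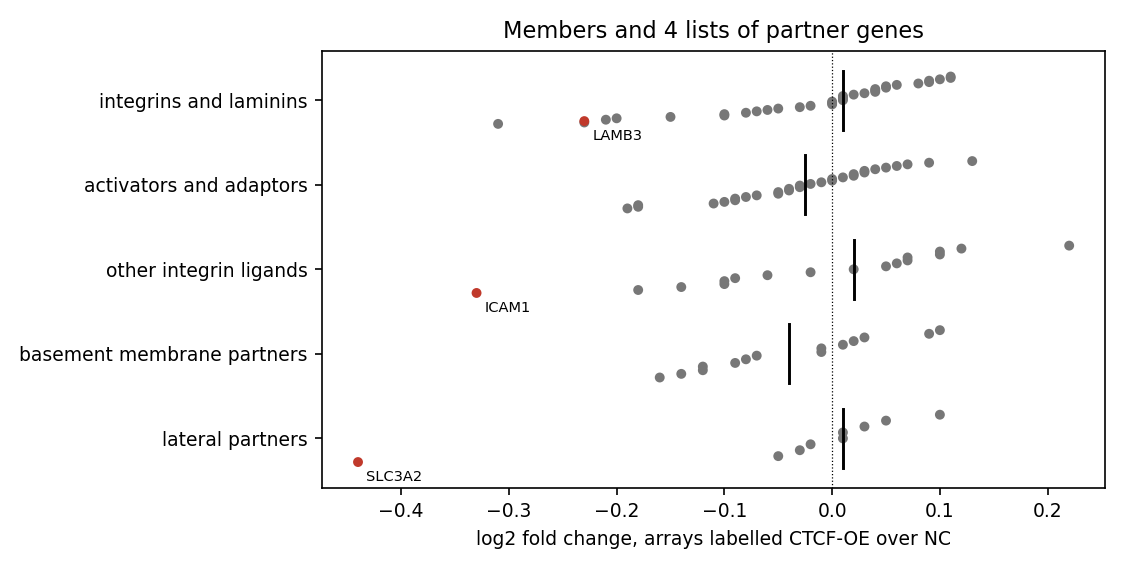
Log2 fold change (x axis, CTCF-OE over NC) of the 35 members and of the 70 partner genes in 4 lists (y axis), 1 point a gene, with the median of each list as a black bar. Red points have an adjusted p under 0.05: LAMB3 at -0.23, ICAM1 at -0.33 and SLC3A2 at -0.44.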

How the data were processed

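The authors deposited 1 linear intensity a probe set, with arrays already scaled to a common level. The software, the background correction and the normalization are not given in the sources used here. RNA from 3 CTCF-OE and 3 NC samples had been labelled and hybridized by the authors, 1 array a sample. The log2 values of intensity + 1 (pseudocount 1) were compared by limma (version 3.58.1, R 4.3.3), with 1 coefficient for the label and Benjamini-Hochberg adjustment over 18155 genes or 49293 probe sets. The 102 control probe sets were left out of the fits. Probe sets with 1 gene symbol numbered 45064, with several 1756 and with none listed 2473. Small intensities have slightly smaller fold changes because of the added 1. Intervals use the moderated degrees of freedom.

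Replicate numbers were not taken to pair the arrays (sensitivity is given with and without a block). Named were members past the threshold, the 12 bright members with the largest change, the partner chains of laminin-332 receptors, and at most 4 past the threshold in each list. Others named were chosen after their values were seen (ITGB2, ITGB3, LAMA2, ITGA7, ITGA10, TNC, FBN1, TLN1, SRC, FERMT3, COL4A1, COL7A1, CD151 and FN1). The members and lists were chosen with earlier results of these data known. The procedure was tested on simulated data. Alternatives changed the pseudocount, scaling, filter, test, block, probe set rule and arrays. Python 3.11.15 and matplotlib 3.10.9 drew the figures.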

Additional observations from a re-analysis of the deposited data

How the results depend on the processing

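The number of arrays limits what these data can show: the median standard error of a member was 0.0502 on the log2 scale, and 0.0361 for the 15 members above the median gene, of which 11 had a 95% interval inside 0.2 of 0 on either side. Calls near the threshold moved with the test. Member genes lower (1) and higher (0) became 2 and 1 with the dimmer 50% of probe sets left out (LAMB3, ITGA5 and ITGB1; 16 members tested), where 7.69 and 5.19 percent of all genes were called, and 3 and 1 with a variance trend on intensity (ITGB2 added), where 4.52 and 3.49 percent were. Leaving out 1 array gave 0 to 1 lower (ITGB2, without CTCF-OE replicate 3) and 0 higher. Of all genes 0.314 to 0.666 percent were then lower and 0.0275 to 0.264 percent higher. A fold change above 1.3 left 0 lower. LAMB3 passed in 9 of 10 settings that keep all arrays.

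Member probe sets lower (1) and higher (1) became 3 and 2 with pseudocount 16, 4 and 2 with the dimmer 50% left out, and 5 and 4 with the trend. Of all probe sets 2.58 and 1.95 percent, 7.18 and 5.71 percent, and 3.86 and 3.16 percent were then called. With the dimmest 20% left out 2 were lower, against 2.35 percent of all probe sets. With median centring, and with the methods' t-test after adjustment, 0 were higher, against 0.787 and 0.471 percent of all probe sets. With a fold change above 1.3 there were 0 lower and 0 higher. Leaving out 1 array gave 0 to 1 lower and 0 higher, where 0.233 to 0.521 percent of all probe sets were lower and 0.0669 to 0.258 percent higher.

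Partner genes lower (2) became 3 with pseudocount 16, the dimmest 20% left out or the mean of probe sets. Of all genes 2.85, 2.44 and 2.13 percent were then lower. They became 5 with the dimmer 50% left out, 6 with the trend and 1 with the t-test, against 7.69, 4.52 and 0.947 percent. They became 1 too with a fold change above 1.3 (0.54 percent of all genes in either direction). The same held when any 1 array was left out (0.314 to 0.666 percent of all genes lower). Partner genes higher (0) became 2 with the trend, against 3.49 percent of all genes. They became 1 with pseudocount 16 (1.73 percent), quantile normalization (0.821), the dimmest 20% (1.31) or the dimmer 50% (5.19) left out. They became 1 too without probe sets ending in _s_at or _x_at (0.634 percent of all genes).

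The replicate numbers gave no sign of pairing, since the deviations of arrays with the same number correlated at 0.012, 0.00542 and 0.00944. With the replicate number as a block, 0 member genes were lower (LAMB3 adjusted p = 0.114 from limma). Of the member probe sets 0 were lower and 0 higher, and 1 partner gene was lower. Of all genes 0.281 percent were then lower and 0.022 percent higher, and of all probe sets 0.126 and 0.0223 percent.

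With the mean of probe sets 9 of the 35 members turned direction, and leaving out 1 array turned 2 to 6, of which 0 passed the threshold. Among the members named by the rule, those that turned were close to 0. With the mean of probe sets the log2 fold change was -0.012 for ITGA3, -0.040 for LAMB1 and -0.027 for LAMC1, and without _s_at and _x_at probe sets -0.032 for LAMC1. Leaving out 1 array gave -0.010 to 0.058 for ITGB5, -0.003 to 0.014 for LAMA5, -0.032 to 0.048 for LAMB1 and -0.006 to 0.028 for LAMC1. The causes were not tested. No scaling moved the median of all genes by over 0.1.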
